A study of Mus musculus with 4 samples.

Results

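Nonclassical monocytes of the mouse aortic arch were described here as the barcodes that carried Treml4 and Cd300e transcripts without the genes of classical monocytes. They numbered 55 of 14148 kept cells, which is 0.389% (95% exact interval 0.293 to 0.506). A cell was a member when it held at least 2 unique molecular identifiers (UMIs, counts of captured transcripts) of Treml4 plus Cd300e, at least 1 of Ptprc (the CD45 gene), at most 2 of Chil3 plus Ly6c2, and 0 of Cd3e, Cd79a and Pdgfra, which mark T cells, B cells and fibroblasts. The members were thus chosen by their UMIs of these 8 genes, so those levels are given as a description with no test. Kept cells had 200 to 6000 detected genes and at most 15% of their UMIs from mitochondrial genes.

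Single cells of aortic arches, taken with their main branches and perivascular tissue, were sequenced in 4 libraries. The comparison asked how atherosclerosis and loss of Nrf2 activity in Cdh5-expressing cells change the cells of the vessel. All donors were male mice with floxed alleles of Nfe2l2, the gene of the stress-response factor Nrf2. Nrf2flox/flox mice (genotype label Nrf2Cdh5Lox) had no Cre, and Nrf2Cdh5tKO mice had Cre from the Cdh5 promoter, which removes exon 5 of Nfe2l2 in cells that express Cdh5 or descend from such cells. Normocholesterolemic mice of either genotype received saline and a standard diet, and atherosclerotic mice received a viral vector and a high-fat diet for 21 weeks. The experiment began at 3 months of age. Each normocholesterolemic library pooled 4 mice and each atherosclerotic library pooled 3 mice, so every condition had 1 library and no replicate, and differences between mice cannot be told apart from differences between conditions.

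Monocytes leave the bone marrow as classical cells with high Ly6C and CCR2, which enter inflamed tissue and can turn into macrophages. Part of them convert in the blood to nonclassical cells with low Ly6C and high CX3CR1, which depend on the nuclear receptor NR4A1 and on the growth factor receptor CSF1R, crawl along the inner face of vessels through the integrin LFA-1 (Itgal with Itgb2) and clear debris from the endothelium. Treml4 and Cd300e encode surface receptors of the immunoglobulin family that are found on nonclassical monocytes. Spn encodes sialophorin (CD43), S1pr5 a sphingosine-1-phosphate receptor needed for leaving the marrow, and Pglyrp1 a peptidoglycan-binding protein.

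The 55 members came as 30 cells from the normocholesterolemic Nrf2flox/flox library, 7 from the library labelled normocholesterolemic Nrf2Cdh5tKO, 8 from the atherosclerotic Nrf2flox/flox library and 10 from the library labelled atherosclerotic Nrf2Cdh5tKO. Their median depth was 10211, 7940, 6835 and 7312 UMIs in the same order. Treml4 alone was found in 26 members, Cd300e alone in 2 and both in 27. The median of Treml4 plus Cd300e was 4 UMIs and the highest value 10. No member barcode occurred in another library, although 30 barcodes were shared by some pair of libraries.

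Just inside the threshold 8 members had exactly 2 UMIs of Treml4 plus Cd300e, and just outside it 58 cells had 1 UMI and met every other condition. The 8 cells just inside had 57.1 CPM (UMIs of a gene per 1000000 UMIs of the summed cells) of Spn, 57.1 of Itgal and 14.3 of Ace. The 58 cells just outside had 45.9 CPM of Spn, 174 of Itgal and 38.0 of Ace. The 47 cells with at least 3 UMIs had 325 CPM of Spn, 516 of Itgal and 452 of Ace. In these sums the cells just inside were closer to the cells just outside than to the other members. All 4 members with at least 2 UMIs of the dendritic cell genes Xcr1 plus Clec9a, described below, were among the 8. They had 16193 to 49405 UMIs each and 0 or 1 of Spn, so they weigh heavily in the sums. The others of the 8 had 3906 to 7563 UMIs each, with 0, 4, 2 and 1 of Spn, and were not summed on their own.

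Genes of other cell types were present in 16 of the 55 members. At least 5 UMIs of the macrophage complement genes C1qa, C1qb and C1qc occurred in 7 members, which gave 29.3% of all member UMIs in the normocholesterolemic Nrf2flox/flox library and 24.9% in the library labelled atherosclerotic Nrf2Cdh5tKO. Xcr1 plus Clec9a, the markers of type 1 conventional dendritic cells, reached at least 2 UMIs in 4 members, and 2 of these gave 67.6% of the member UMIs in the library labelled normocholesterolemic Nrf2Cdh5tKO. More than 20 UMIs of the neutrophil genes S100a8 plus S100a9 were seen in 3 members, at least 20 of the smooth muscle genes Acta2 plus Tagln in 1, at least 20 of the fibroblast gene Dcn in 1, and no Csf1r in 3. The member with Dcn gave 19.4% of the member UMIs in the atherosclerotic Nrf2flox/flox library. The doublet caller Scrublet marked 2 of the 55.

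Without these 16 cells, 39 members were left, 19, 5, 7 and 8 by library in the order above. This set was chosen after the values had been seen, so its values are given beside those of all 55 without a test, and it is called the 39 cells below. The 39 cells held no UMI of Xcr1, Clec9a, Cadm1, Ccr7, Zbtb46, Ly6g, Gata6, Cd4, Cpa3, Kdr or Cdh5, the gene whose promoter drives the Cre. Low levels of the most abundant gene remained for several other cell types, with 16 UMIs of Naaa for type 1 dendritic cells, 62 of G0s2 for neutrophils, 93 of Gsn for fibroblasts and 59 of Acta2 for smooth muscle among 288736 UMIs.

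Of the label's markers that the rule did not use, Itgal was detected in 49 of 55 members and Spn in 42, and in 39 and 36 of the 39 cells. Classical monocytes, gated as given below, also held these genes, Itgal in 64.8% and Spn in 35.2% of 125 cells. Pglyrp1 was found in 69.1% of the members and 43.2% of the classical cells, but its summed level was lower in the members (382 CPM) than in the classical cells (676 CPM). Over the 83 cells of the strict classical gate, defined below, the order turned, with 96.2 CPM. Among 7041 stromal cells with Pdgfra and without Ptprc, which should lack the genes, 0.767% had a UMI of Itgal and 0.270% of Spn at a median of 13604 UMIs per cell, compared with 89.1% and 76.4% of the members at a median of 7460. That contrast sets leukocytes apart from stroma and does not bear on the kind of monocyte. In the same stromal cells 1.83% had a UMI of Pglyrp1, 0.0710% of Treml4 and 0.0284% of Cd300e. S1pr5 gave 18 UMIs in 11 members and was too sparse to describe by library.

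Treml4 stood at 312, 191, 335 and 473 CPM in the members of the 4 libraries, in the order normocholesterolemic Nrf2flox/flox, library labelled normocholesterolemic Nrf2Cdh5tKO, atherosclerotic Nrf2flox/flox and library labelled atherosclerotic Nrf2Cdh5tKO, an order kept for all values below. Classical monocytes, gated by at least 3 UMIs of Plac8, 3 of Ly6c2 plus Chil3 and 5 of Lyz2, had 83.4, 37.9, 12.4 and 84.3 CPM. Among them 22 cells met the nonclassical rule except its limit on Chil3 plus Ly6c2. Without these 22 the Treml4 level was 19.5, 13.3, 8.52 and 6.82 CPM, a fall that a split by Treml4 itself made likely. Macrophages, gated by Ptprc and at least 5 UMIs of C1qa plus C1qb plus C1qc, had at most 2.88. Cd300e stood at 134, 49.7, 218 and 243 CPM in the members, 20.1 in the classical monocytes of the first library and 0 in those of the other 3. The lowest member library was above every classical library for both genes, which the rule itself made likely. Treml4 lies on chromosome 17 (17:48264295-48275360, plus strand) and Cd300e on chromosome 11 (11:115051917-115062177, minus strand) of GRCm38.

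**Figure D1:**
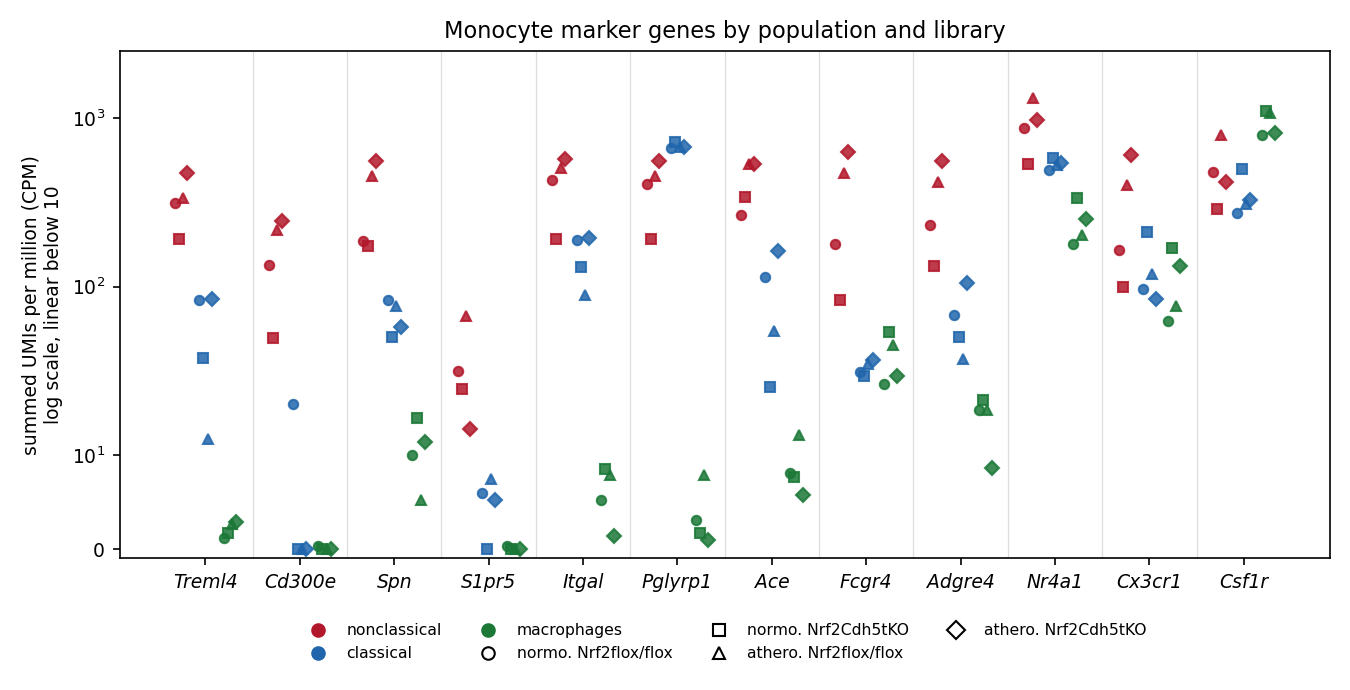
CPM of 12 genes in nonclassical monocytes, classical monocytes and macrophages, 1 point per library, on a symmetric log axis. Treml4 and Cd300e are gate genes, and Spn, Itgal, Ace, Fcgr4 and Adgre4 lie higher in the nonclassical cells of every library than in the classical cells of the same library.

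The start regions of 4 genes are shown because Treml4 and Cd300e define the cells and Fcgr4 and Adgre4 were among the genes that rose in them. Each run is the 250 bases before and 50 bases after the start in GRCm38.p6 from RefSeq, read 5′ to 3′ on the strand of the gene, at chr17:48264045-48264344 (plus), chr11:115061990-115062289 (minus), chr1:171018676-171018975 (plus) and chr17:55749734-55750033 (plus). Capitals mark the letters GAGGAAGT, a binding word of the myeloid factor PU.1, and TTGCNNAA, a word of the C/EBP factors, found on either strand.
Treml4: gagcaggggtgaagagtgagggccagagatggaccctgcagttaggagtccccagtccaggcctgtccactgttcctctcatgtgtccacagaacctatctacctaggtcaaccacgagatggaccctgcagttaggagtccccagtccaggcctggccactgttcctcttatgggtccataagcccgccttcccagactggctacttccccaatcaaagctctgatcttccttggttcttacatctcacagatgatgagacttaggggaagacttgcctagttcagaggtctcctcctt
Cd300e: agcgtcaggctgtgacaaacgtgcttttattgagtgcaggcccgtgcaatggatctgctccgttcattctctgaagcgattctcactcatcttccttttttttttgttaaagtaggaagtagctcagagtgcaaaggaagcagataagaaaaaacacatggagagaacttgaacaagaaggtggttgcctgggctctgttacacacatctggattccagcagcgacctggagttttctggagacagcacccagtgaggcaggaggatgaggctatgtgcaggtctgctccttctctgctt
Fcgr4: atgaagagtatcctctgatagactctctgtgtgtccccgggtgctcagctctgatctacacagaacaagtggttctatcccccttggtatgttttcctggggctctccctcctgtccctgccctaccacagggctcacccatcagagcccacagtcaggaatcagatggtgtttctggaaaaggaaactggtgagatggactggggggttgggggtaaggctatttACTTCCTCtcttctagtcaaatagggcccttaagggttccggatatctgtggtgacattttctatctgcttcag
Adgre4: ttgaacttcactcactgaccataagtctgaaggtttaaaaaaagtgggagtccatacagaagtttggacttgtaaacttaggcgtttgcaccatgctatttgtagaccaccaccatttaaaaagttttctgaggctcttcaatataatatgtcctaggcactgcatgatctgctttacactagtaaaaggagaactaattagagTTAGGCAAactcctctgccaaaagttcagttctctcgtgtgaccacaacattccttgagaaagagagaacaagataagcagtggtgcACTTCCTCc
In Fcgr4 the PU.1 word began 24 bases before the start, and in Adgre4 the C/EBP word began 46 bases before it and the PU.1 word 42 bases after it, all on the opposite strand. Neither word was in the windows of Treml4 and Cd300e.

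Across 32851 promoter windows of the same length, the PU.1 word was in 3.20% and the C/EBP word in 10.8%. For the sets below, genes with an entry were counted, and a gene counted when any of its windows held the word. Of the 6145 such genes tested against classical monocytes, 4.57% had the PU.1 word and 10.4% the C/EBP word. The PU.1 word was in 13 of 62 genes (21%) higher in nonclassical than in classical monocytes. Among them were Fcgr4, Adgre4, Dusp5, Slamf9 and Bcl2a1a, Bcl2a1b and Bcl2a1d, 3 near-identical copies. It was in 11 of 99 genes (11.1%) that were lower, among them F13a1, Mmp8 and S100a4. Against macrophages it was in 33 of 280 genes (11.8%) that were higher and 24 of 526 (4.56%) that were lower. The C/EBP word was in 10 of 62 genes (16.1%) higher and 21 of 99 (21.2%) lower than in classical monocytes. The NR4A word AAAGGTCA was in 1 of the 62 and 2 of the 99, beside 1.51% of all windows and 1.17% of the tested genes. The KLF word CCACACCC was in 6 and 6, beside 3.56% of all windows and 4.61% of the tested genes. These shares are descriptions of letters in the windows.

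For the comparison with classical monocytes, UMIs were summed for each population in each library and tested with edgeR's quasi-likelihood test with library as a block and Benjamini-Hochberg adjustment. The 10 gate genes were left out. A strict classical gate kept the 83 of 125 classical cells that had Ptprc, lacked Cd3e, Cd79a and Pdgfra and held at most 20 UMIs of S100a8 plus S100a9, which 24 exceeded. Of the 125 cells, 22 met the nonclassical rule except its limit on Chil3 plus Ly6c2. The strict gate left these out only where S100a8 plus S100a9 exceeded 20 UMIs. In the library labelled atherosclerotic Nrf2Cdh5tKO, 4 of its 7 cells were such cells. Of 7748 genes, 83 were higher (1.07%) and 142 lower (1.83%) in the nonclassical cells at an adjusted p below 0.05. The gates separate the cells by genes that many others follow, so these calls describe what lies on either side of the gates and are no independent evidence for the label. Both cell types came from the same 4 libraries, and the p-values measure the spread between those. Among 20 other genes known from nonclassical monocytes all were tested, 11 were higher and 0 lower, and their median log2 fold change was 1.60, beside -0.14 for all genes. This list was drawn up with results of these data known.

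Fcgr4, which encodes the activating IgG receptor Fc gamma RIV of Ly6C-low monocytes, stood at 178, 82.9, 469 and 630 CPM in the members and at 31.2, 29.5, 34.8 and 36.9 in the classical monocytes. It rose by 2.80 ± 0.38 (log2 fold change ± SE, adjusted p = 7.1e-06), and the levels did not overlap. Ace, the angiotensin-converting enzyme, stood at 267, 340, 536 and 530 CPM against 114, 25.3, 54.6 and 163, a rise of 2.12 ± 0.37 (adjusted p = 9.7e-04). Adgre4, an adhesion receptor of the EGF-TM7 family, was at 232, 133, 419 and 559 CPM against 68.3, 50.5, 37.3 and 105 (log2 fold change 2.04 ± 0.34, adjusted p = 2.0e-04). For all 3 genes every member library was above every classical library, and each remained called when any library was left out. Gngt2, a G protein gamma subunit, rose by 1.42, the B-cell and myeloid transcription factor Pou2f2 by 1.60, the MAP kinase phosphatase Dusp5 by 2.44 and the secreted ribonuclease Ear2 by 1.76, and each of these 4 remained called without any 1 library. The Wnt pathway factor Tcf7l2 rose by 1.61 (adjusted p = 0.023), a call lost without either atherosclerotic library (1.21 and 1.69).

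Among the label's own markers outside the rule, Spn rose by 1.92 ± 0.34 (adjusted p = 4.9e-04), from 83.4, 50.5, 77.0 and 58.0 CPM in classical monocytes to 188, 174, 452 and 559 CPM, with no overlap. Itgal rose by 1.23 ± 0.31 (adjusted p = 0.018), with 189, 131, 89.4 and 195 CPM in the classical and 426, 191, 502 and 573 CPM in the nonclassical cells, so the lowest member library lay inside the classical range. Without the 22 classical cells that also held at least 2 UMIs of Treml4 plus Cd300e, the classical levels were 114, 115, 88.0 and 81.8 CPM. These lay below every member library, and no fit was run without those cells. The Itgal call was lost without the normocholesterolemic Nrf2flox/flox (1.38), the atherosclerotic Nrf2flox/flox (0.97) or the library labelled atherosclerotic Nrf2Cdh5tKO (1.28), and under the strict classical gate (0.92, adjusted p = 0.20). S1pr5 had a log2 fold change of 2.50 ± 0.79 (adjusted p = 0.087). Pglyrp1 went against its place in the marker set, with a fall of 1.06 (adjusted p = 0.027) that was lost without any 1 library (-1.16 to -0.74). Under the strict classical gate it had a log2 fold change of 2.08 (adjusted p = 0.37).

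The genes with the highest folds over classical monocytes included receptors and fatty acid genes. Lilra5, an activating immunoglobulin-like receptor, was at 105, 49.7, 50.2 and 158 CPM in the members, 9.05 in the classical cells of the first library and 0 in those of the other 3, and rose by 4.25 ± 0.64 (adjusted p = 4.0e-05) with UMIs in 26 members. Itgax, the integrin CD11c, was at 114, 66.3, 100.5 and 158 CPM against 13.1, 0, 9.94 and 10.5 and rose by 3.31 ± 0.50 (adjusted p = 3.7e-05). Both genes had no overlap between the populations. Dusp16 rose by 3.04, the growth factor Pdgfb by 3.0, Smagp by 2.96, the surface receptor Slamf9 by 2.90, the adhesion molecule L1cam by 2.88 and the muscle-type enolase Eno3 by 2.74. Eno3 was no longer called under the strict classical gate (2.25, adjusted p = 0.44) or without the library labelled normocholesterolemic Nrf2Cdh5tKO (2.47, adjusted p = 0.11). L1cam and Smagp were lost without the library labelled atherosclerotic Nrf2Cdh5tKO (2.64 and 2.49), and Slamf9 without the members rich in C1q genes (2.04, adjusted p = 0.22). Without the normocholesterolemic Nrf2flox/flox library Slamf9 was below the minimum of 20 UMIs.

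Of 20 lipid-handling genes tested, 4 were higher and 2 lower, with a median log2 fold change of 0.41. Fabp4, a fatty acid carrier, was at 172, 16.6, 754 and 1418 CPM in the members and 25.1, 4.21, 39.7 and 5.27 in the classical cells, so the lowest member library lay within the classical range. It rose by 3.95 ± 0.69 (adjusted p = 0.021). Cd36, the scavenger receptor for oxidised lipoprotein, was at 305, 99.4, 703 and 516 CPM against 63.3, 8.42, 4.97 and 10.5, with no overlap (3.92 ± 0.72, adjusted p = 0.036). Pparg, the lipid-sensing nuclear receptor, rose by 3.13 ± 0.59 (adjusted p = 1.1e-03) and Abcg1, a cholesterol exporter, by 1.61 ± 0.36 (adjusted p = 5.7e-03). Calls depended on single libraries here. Fabp4 was lost without the library labelled normocholesterolemic Nrf2Cdh5tKO (4.11) or the atherosclerotic Nrf2flox/flox library (3.98), Cd36 without either library labelled Nrf2Cdh5tKO (4.04 and 3.66), Pparg without the atherosclerotic Nrf2flox/flox library (2.55) and Abcg1 without the library labelled atherosclerotic Nrf2Cdh5tKO (1.51). All 4 were called under the strict classical gate. The scavenger receptor Msr1 (-2.02) and the sterol carrier Npc2 (-1.25) were lower, and both calls were lost without either atherosclerotic library (Msr1 -1.65 and -1.67, Npc2 -0.96 and -1.11), Msr1 also without the library labelled normocholesterolemic Nrf2Cdh5tKO (-2.03).

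Of 20 survival genes 3 were higher and none lower, all of them copies of the anti-apoptotic gene Bcl2a1. Bcl2a1d rose by 2.72, Bcl2a1a by 2.45 and Bcl2a1b by 1.97 in all fits without 1 library, but these copies are near-identical and the split of reads between them is uncertain. The adhesion list of 21 genes held 4 higher (Itgal, Itgax, Spn and the integrin chain Itgb1 with 0.97) and 3 lower, among them Ccr2 and the chemokine receptor Ccr1 (-2.79). Itgb1 was lost without the normocholesterolemic Nrf2flox/flox library (1.12) or either atherosclerotic library (0.80 and 1.03), and Ccr1 without either library labelled Nrf2Cdh5tKO (-2.59 and -2.30). Among 19 Fc and phagocytic receptors 3 were higher (Cd36, Fcgr4, Lilra5) and 2 lower (Msr1 and Fcgr1, the high-affinity IgG receptor, with -2.57), and among 24 transcription factors 3 were higher (Pou2f2, Pparg, Tcf7l2) and 2 lower. Nr4a1 itself had 868, 530, 1306 and 974 CPM in the members and 490, 581, 527 and 543 in the classical cells, a log2 fold change of 0.51 ± 0.26 (adjusted p = 0.51). Nr4a1 stood at 1328, 1382, 1474 and 1106 CPM in the 39 cells and in the cells of the strict classical gate at 574, 798, 671 and 794, levels that did not overlap and carry no test. In the last library 48 of the 57 Nr4a1 UMIs of the strict gate came from the 4 cells that also held at least 2 UMIs of Treml4 plus Cd300e. Cx3cr1 had 0.88 ± 0.48 (adjusted p = 0.61).

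Classical monocyte genes were low in the members. Of 16 tested, 9 were lower and 0 higher, with a median log2 fold change of -2.43. F13a1, which encodes a subunit of clotting factor XIII, had 3 UMIs in all members, 9.54 CPM in the first library and 0 in the other 3, against 357, 408, 497 and 237 CPM. The summed level was 71.9-fold lower (95% counting interval 24.5 to 349.5). Ccr2, the receptor that takes classical monocytes into tissue, was at 105, 66.3, 251 and 43.0 CPM in the members and at 399, 636, 792 and 343 CPM in the classical cells, with no overlap, and fell by 2.52 ± 0.33 (adjusted p = 3.9e-06). Vcan (the proteoglycan versican) fell by 3.79, Hp (haptoglobin) by 2.52, Ms4a4c by 2.35, Mgst1 by 2.06 and S100a4 by 1.43, and all of these were also lower under the strict classical gate. Mmp8 (-4.90) rested on 5 UMIs in 1 member.

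The other genes with the deepest falls included the neutrophil granule proteins Ltf, Camp, Ngp and Lcn2 and the neutrophil surface protein Ly6g. Ltf, Prtn3, Fcnb, Ly6g, Mgst2, Chil1 and Itgb2l had 0 UMIs in the members and were at least 343-, 110.2-, 60.6-, 21.5-, 10.5-, 9.39- and 7.63-fold lower, against a floor of 3 UMIs over the group. Camp, Ngp, Lcn2 and Wfdc21 had 4 to 7 UMIs in the members and 2141 to 18104 in the classical cells. Under the strict classical gate 10 of the 24 genes with the highest folds in either direction were below the minimum of 20 UMIs. That gate changed several conditions together, and the part of the 24 S100a8- and S100a9-rich cells in these falls was not tested.

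Among cytokine and interferon genes a minority were called, most of them lower in the nonclassical cells. Of 25 cytokine and chemokine genes 7 were lower and 2 higher, with a median of -1.14. Ccl2, the ligand of CCR2, was at 76.3, 0, 50.2 and 71.6 CPM against 307, 80.0, 397 and 717 and fell by 3.01 ± 0.40 (adjusted p = 6.1e-06), with no overlap. Il6 fell by 3.15, Osm by 2.19, Ccl7 by 1.98, Tnfsf9 by 1.56 and Ccl6 by 1.19, and Cxcl3 by 5.49 with 1 UMI in the members. Without the library labelled atherosclerotic Nrf2Cdh5tKO the calls of Osm (-2.04), Ccl7 (-1.25), Ccl6 (-1.01) and Cxcl3 (-2.56) were lost. Without the normocholesterolemic Nrf2flox/flox library those of Osm (-2.55), Ccl7 (-2.36) and Tnfsf9 (-1.58) were lost, without the library labelled normocholesterolemic Nrf2Cdh5tKO those of Ccl6 (-0.89) and Tnfsf9 (-1.18), and without the atherosclerotic Nrf2flox/flox library that of Tnfsf9 (-1.35). Both higher genes, Il12b and Ccl5, came from 1 member each and had 0 UMIs in the 39 cells. Of 23 interferon-stimulated genes 5 were lower and 0 higher (median -1.07), among them the ubiquitin-like Isg15 (-2.06), the transcription factor Irf7 (-1.79) and Ifi204 (-1.54, lost without the library labelled atherosclerotic Nrf2Cdh5tKO at -1.29). Ifit2 and Mx1 had 0 UMIs in the members, were at least 3.61- and 3.30-fold lower and were called in no fit without 1 library.

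In the remaining lists few genes were called against classical monocytes. Among 20 immediate-early and heat shock genes only Ier3 was lower, by 2.25 in all fits. Prdx6 was the 1 gene lower of 22 Nrf2 targets (-1.36, median of the list -0.42), lost without the library labelled atherosclerotic Nrf2Cdh5tKO (-1.07), and Npc2 the 1 lower of 20 lysosomal genes. Of 11 genes for MHC class II presentation, the costimulatory Cd86 was higher (1.25, lost without any 1 library, 1.14 to 1.43). None of 19 cell cycle genes was called. Among markers of other cell types, Xcr1 and Cadm1 of 5 type 1 dendritic cell genes and Ccr7 of 5 type 2 dendritic cell genes were higher, and the 39 cells held no UMI of these 3. Ear2, 1 of 5 cavity macrophage genes, was higher and stood at 581.8 CPM in the 39 cells beside 111 in the classical cells. Ly6g and Mmp9 of 8 neutrophil genes and Nkg7, the 1 natural killer gene tested, were lower, and Nkg7 and Ly6g had 0 UMIs in the members. The Mmp9 call was lost without the library labelled atherosclerotic Nrf2Cdh5tKO (-2.41). No tested gene of T cells (2), B cells (2), mast cells and basophils (1), platelets and red cells (1), fibroblasts (7), smooth muscle (6) or endothelium (1) was called.

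**Figure D2:**
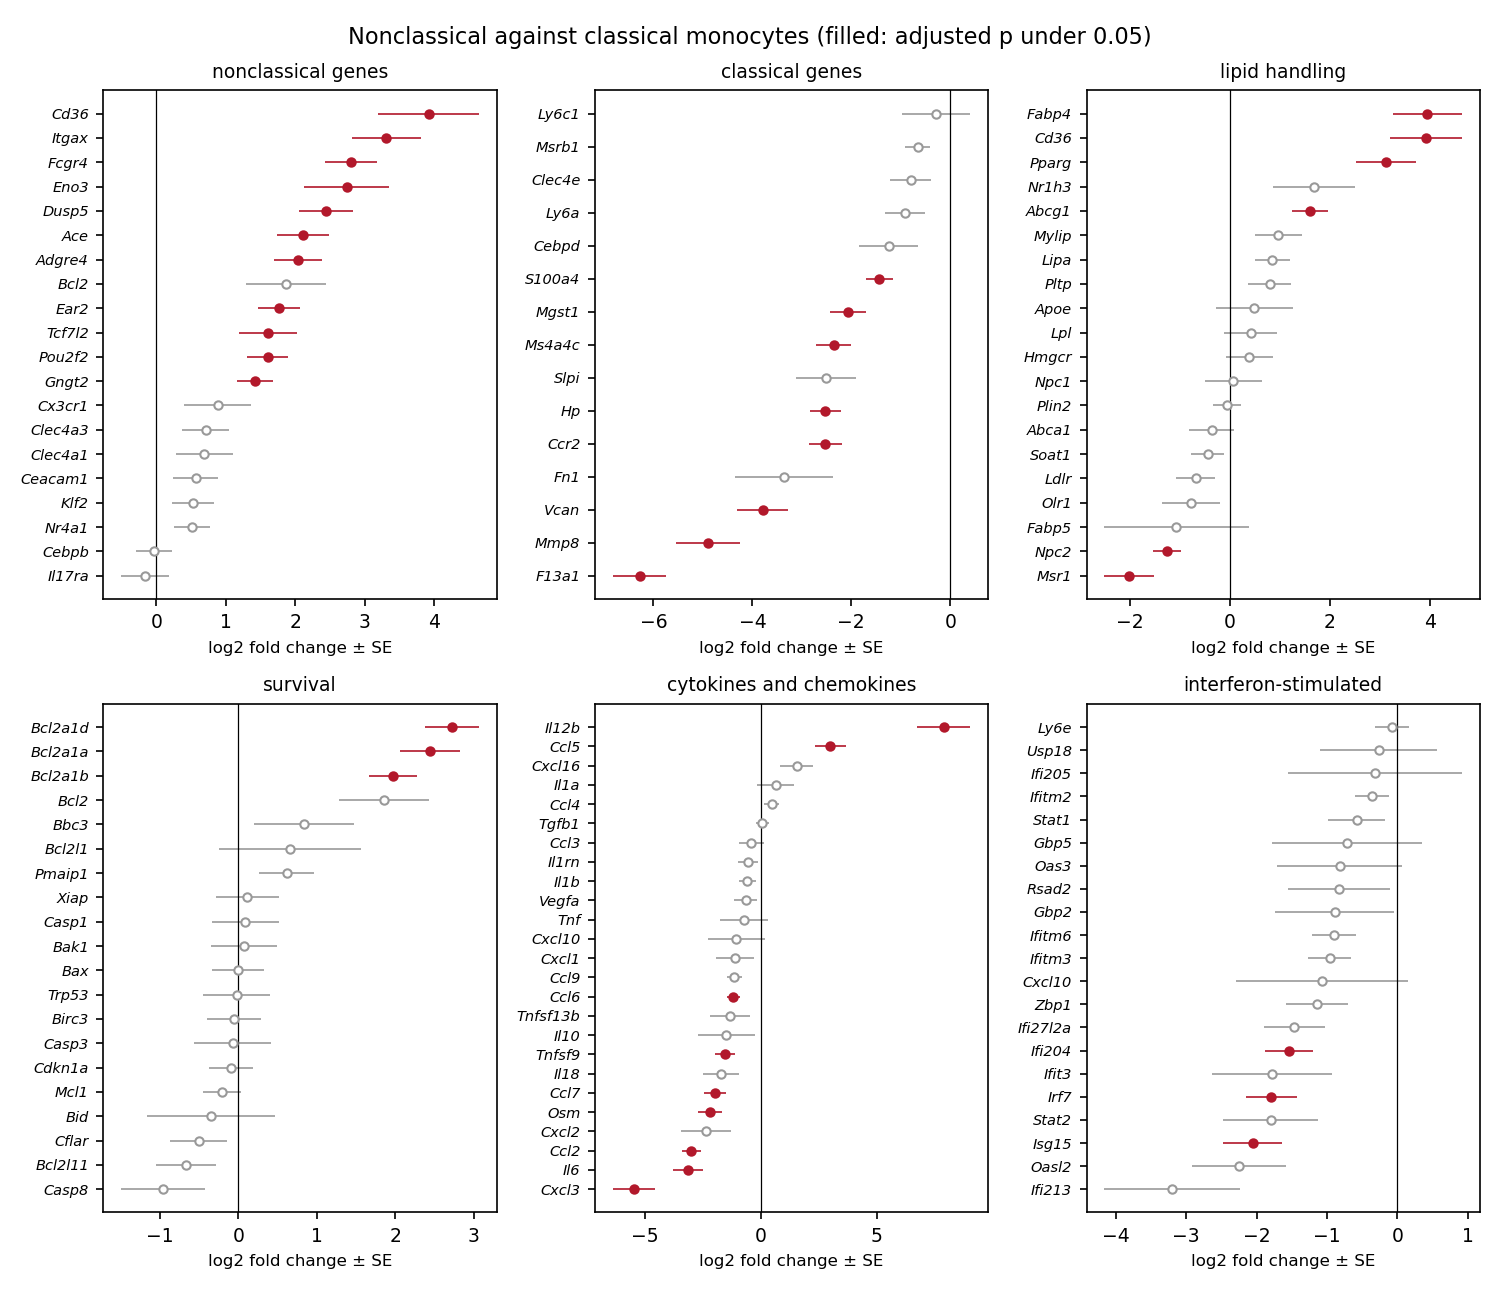
Log2 fold change with its standard error of the genes of 6 lists, nonclassical against classical monocytes, with filled points for an adjusted p below 0.05. Filled points of the nonclassical list lie above 0 and those of the classical list below 0, and genes without a UMI in the nonclassical cells, and 1 classical gene that is not reported, are not drawn.

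Against macrophages the members differed in more genes. Of 11439 genes tested with 13 gate genes left out, 365 were higher (3.19%) and 690 lower (6.03%), and the median of all genes was -0.32. DESeq2 called 324 higher and 397 lower, a larger share of higher genes. In the 39 cells 346 of the 365 and all 690 had the same sign. Itgal, Spn and Pglyrp1 of the label's markers were higher. Itgal was at 426, 191, 502 and 573 CPM against 5.19, 8.55, 7.93 and 1.44 in macrophages and rose by 6.0 ± 0.37 (adjusted p = 5.1e-54). Spn rose by 4.52 and Pglyrp1 by 6.90, while S1pr5 reached the minimum of 20 UMIs only through 18 in the members beside 2 in macrophages, and fell below it without any 1 library. Of 20 other nonclassical genes 16 were higher and 0 lower (median 1.76). Among the 16 calls, 5 were lost without some 1 library (Bcl2, Clec4a3, Cx3cr1, Ear2 and Tcf7l2).

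Nr4a1, the nuclear receptor on which these cells depend, was at 868, 530, 1306 and 974 CPM in the members and at 179.9, 334, 204 and 252 in macrophages, with no overlap, and rose by 1.71 ± 0.32 (adjusted p = 3.1e-06). Ace rose by 5.36, Gngt2 by 4.35, Adgre4 by 3.96, the adhesion molecule Ceacam1 by 3.95, Fcgr4 by 2.69 and Pou2f2 by 2.35, all of them in every fit without 1 library. Cx3cr1 rose by 1.18 (adjusted p = 2.6e-03), a call that was lost without the normocholesterolemic Nrf2flox/flox library (1.07) or either atherosclerotic library (0.93 and 0.94). Ly6i (7.14), the receptor Trem3 (7.06), the sodium channel subunit Scnn1a (6.16), Nxpe4 (5.94), the glycosyltransferase Gcnt2 (5.32), Eno3 (5.20), the ubiquitin ligase Rnf144a (4.99) and Hp (4.97) were the other genes with the highest folds. Without the normocholesterolemic Nrf2flox/flox library Scnn1a, Trem3 and Nxpe4 were below the minimum of 20 UMIs. Scnn1a and Rnf144a were below it without the library labelled normocholesterolemic Nrf2Cdh5tKO.

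Of 17 macrophage genes tested, all 17 were lower, with a median of -4.80. The mannose receptor Mrc1 was at 47.7 CPM in the members of the first library and 0 in the other 3, against 1327 to 2012 CPM in macrophages, and fell by 6.5. In the 39 cells it had no UMI. Apoe, the lipoprotein ligand, was at 3701, 563, 7536 and 3709 CPM against 10577 CPM or more and fell by 2.39 ± 0.39. The transcription factor Maf had -5.06. The 12 genes with the deepest falls had 0 UMIs in the members. They included the lectins Cd209f (at least 46.3-fold lower), Cd209g (19.3), Cd209d (11.2) and Cd209b (8.06), Chp2 (23.6), the ficolin Fcna (22.6), Pla2g2d (10.6), Mucl1 (10.5), Npl (9.62), the interferon-induced Iigp1 (6.60), Fgd6 (6.22) and the endotoxin receptor Tlr4 (5.74). Mucl1 lost its call without the library labelled atherosclerotic Nrf2Cdh5tKO (adjusted p = 0.11).

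Among stress, lysosome and chemokine genes, the called genes were mostly lower than in macrophages. Of 21 immediate-early and heat shock genes 13 were lower and 0 higher, with Jun at 493, 166, 368 and 645 CPM against 934, 2390.0, 2172 and 2343 (fall of 2.43 ± 0.36), Egr1 lower by 2.09 and Hspa1a by 2.36. Of 20 lysosomal genes 12 were lower and 0 higher, such as the protease Ctsd (-1.63) and the tetraspanin Cd63 (-2.08), and of 26 cytokine genes 13 were lower, with Ccl2 down by 5.14, and 2 higher. Many of these calls were lost without some 1 library. They were 7 of the 13 stress genes (Dnajb1, Fos, Fosb, Hspa1b, Junb, Jund and Zfp36), 5 of the 12 lysosomal genes (Cd68, Ctsb, Ctsh, Lamp1 and Lamp2), and Ccl3, Ccl4, Cxcl3, Il10 and Tnf among the lower cytokine genes. Il1b, the interleukin-1 gene, was higher by 1.18, which was lost without the normocholesterolemic Nrf2flox/flox library (0.77) and against macrophages gated by Adgre1 and Cd68 (0.70). Il12b came from 1 cell.

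Of 23 targets of Nrf2, 6 were higher and 2 lower. Gsr, glutathione reductase, was at 286, 133, 502 and 372 CPM against 14.3, 12.8, 34.4 and 19.2 in macrophages, with no overlap, and rose by 3.80 ± 0.33 (adjusted p = 1.7e-27). Slc7a11, the cystine importer, rose by 2.87, transaldolase (Taldo1) by 1.67, thioredoxin (Txn1) by 1.28, Prdx6 by 1.44 and Tkt by 0.90. Slc7a11 (2.36) and Prdx6 (1.15) were lost without the normocholesterolemic Nrf2flox/flox library and Tkt without any 1 library (0.70 to 1.02). Hmox1, heme oxygenase, fell by 3.02 and Blvrb, which reduces biliverdin, by 1.78, both in all fits. The list's median was -0.13, close to that of all genes.

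Adhesion genes were called in both directions. Of 22 adhesion genes 11 were higher and 4 lower, with Itga4 (the alpha chain of VLA-4) at 264, 423, 770 and 759 CPM against 96.1, 105, 141 and 124 and a rise of 1.93 ± 0.30, the chemokine receptor Cxcr4 higher by 1.47 and Itgb7 by 3.34. Among 20 Fc and phagocytic receptors 2 were higher and 7 lower, among 26 transcription factors 5 were higher and 6 lower, among 25 interferon-stimulated genes 2 were higher and 8 lower, and among 13 MHC class II genes 1 was higher and 2 lower. Among 21 lipid genes 5 were higher, such as Pparg (2.74) and Fabp4 (2.36), and 5 lower, such as the exporter Abca1 (-2.58). Cd36 had a log2 fold change of -0.32 ± 0.32 (adjusted p = 0.66). Of 20 survival genes 4 were higher and 2 lower, of 15 classical monocyte genes 5 were higher and 4 lower, and none of 20 cell cycle genes was called. Of the markers of other cells, 5 of 6 genes of type 1 dendritic cells were higher, 2 of 6 of type 2 dendritic cells were higher and 3 lower, 3 of 7 of neutrophils higher and 1 lower, 1 of 7 of cavity macrophages higher and 2 lower, 1 of 5 endothelial genes (Pecam1) higher, 1 of 3 B-cell genes and 1 of 4 platelet and red cell genes lower, and none of 1 natural killer, 6 T-cell, 1 mast cell, 7 fibroblast and 6 smooth muscle genes was called. Calls lost without some 1 library were 5 of 15 adhesion genes, 0 of 9 Fc and phagocytic receptors, 4 of 11 transcription factors, 7 of 10 interferon-stimulated genes, 3 of 3 MHC class II genes, 2 of 10 lipid genes, 5 of 6 survival genes, 4 of 9 classical genes, 5 of 5 genes of type 1 and 2 of 5 of type 2 dendritic cells, 2 of 4 neutrophil genes, 2 of 3 cavity macrophage genes, the 1 endothelial gene (Pecam1, 1.07 to 1.61 in the fits where it was lost) and the 1 B-cell gene (Ighm, -1.02 and -0.91).

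The members also differed among themselves. Of the 39 cells 24 held Cd300e and 15 did not, at medians of 6508 and 9327 UMIs, although in the library labelled normocholesterolemic Nrf2Cdh5tKO the cells with Cd300e were the deeper ones (7700 and 5504). Fcgr4 was at 527 CPM in the cells with Cd300e and 122 in those without, Adgre4 at 565 and 297, Itgal at 799 and 488, Itgax at 121 and 15.3, Pglyrp1 at 856 and 244, and Cd36 at 692 and 282. The reverse order was seen for Plac8 (1009 and 3363), Cd74, the invariant chain of MHC class II (3527 and 8687), and H2-Aa, an MHC class II chain (1009 and 2669). In each library Fcgr4, Itgax, Pglyrp1 and Cd36 were higher, and Plac8 and Cd74 lower, in the cells with Cd300e. Adgre4 went the other way in the library labelled normocholesterolemic Nrf2Cdh5tKO (260 CPM with and 507 without Cd300e) and Itgal in the atherosclerotic Nrf2flox/flox library (526 and 696). H2-Aa also went the other way in the atherosclerotic Nrf2flox/flox library (371 and 190 CPM), and 142 of its 159 UMIs in the cells with Cd300e lay in 3 cells of the normocholesterolemic Nrf2flox/flox library. Summed over libraries, Ace (679 and 564), Spn (489 and 435), Nr4a1 (1478 and 1129) and Cx3cr1 (343 and 343) were close. Within libraries they were not always so. In the atherosclerotic Nrf2flox/flox library Ace stood at 618 CPM with and 443 without Cd300e, Spn at 526 and 506, Nr4a1 at 1886 and 632 and Cx3cr1 at 340 and 759. In the library labelled atherosclerotic Nrf2Cdh5tKO Ace stood at 828 and 454, Spn at 521 and 808, Nr4a1 at 1073 and 1161 and Cx3cr1 at 644 and 404. Cells are not replicates, and these sums carry no test.

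MHC class II transcripts were concentrated in a minority of members. The sum of H2-Aa, H2-Ab1, H2-Eb1 and Cd74 had a median of 0.132%, 0.0756%, 0.0485% and 0.0458% of a cell's UMIs in the 39 cells of the 4 libraries. The highest cell reached 6.93%, 2.94%, 1.13% and 1.51%. At least 1% was reached by 5 of 19, 1 of 5, 1 of 7 and 1 of 8 of these cells, and by 11 of 30, 3 of 7, 1 of 8 and 2 of 10 of all members. Most members thus held little MHC class II mRNA, and each library had at least 1 cell with a high level.

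**Figure D3:**
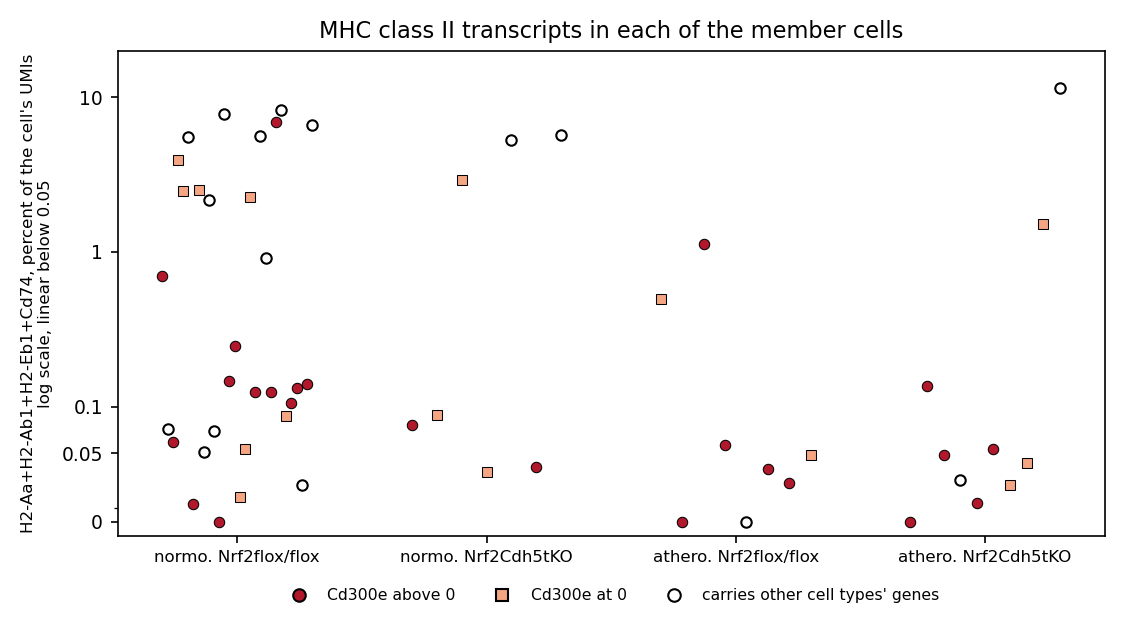
Percent of a cell's UMIs from H2-Aa, H2-Ab1, H2-Eb1 and Cd74 in each of the 55 members by library, with red dots for cells with Cd300e, orange squares for cells without it, and open circles for cells that carry other cell types' genes. The place of a point across a library is arbitrary, and in each library most points lie low with 1 or more cells above 1%.

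As a share of kept cells the members made up 0.380% (95% exact interval 0.257 to 0.542), 0.236% (0.0947 to 0.485), 0.784% (0.339 to 1.54) and 0.441% (0.212 to 0.810) of the 4 libraries. The intervals overlapped and cover counting error only, and with 1 library per condition no difference in share was tested. As a share of nonclassical plus classical monocytes they made up 30.6% (21.7 to 40.7), 29.2% (12.6 to 51.1), 23.5% (10.7 to 41.2) and 41.7% (22.1 to 63.4). The 39 cells were 0.241%, 0.168%, 0.686% and 0.353% of kept cells. In whole tissue that was sorted for living cells, fewer cells of a type and a lower recovery of that type cannot be told apart.

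**Figure D4:**
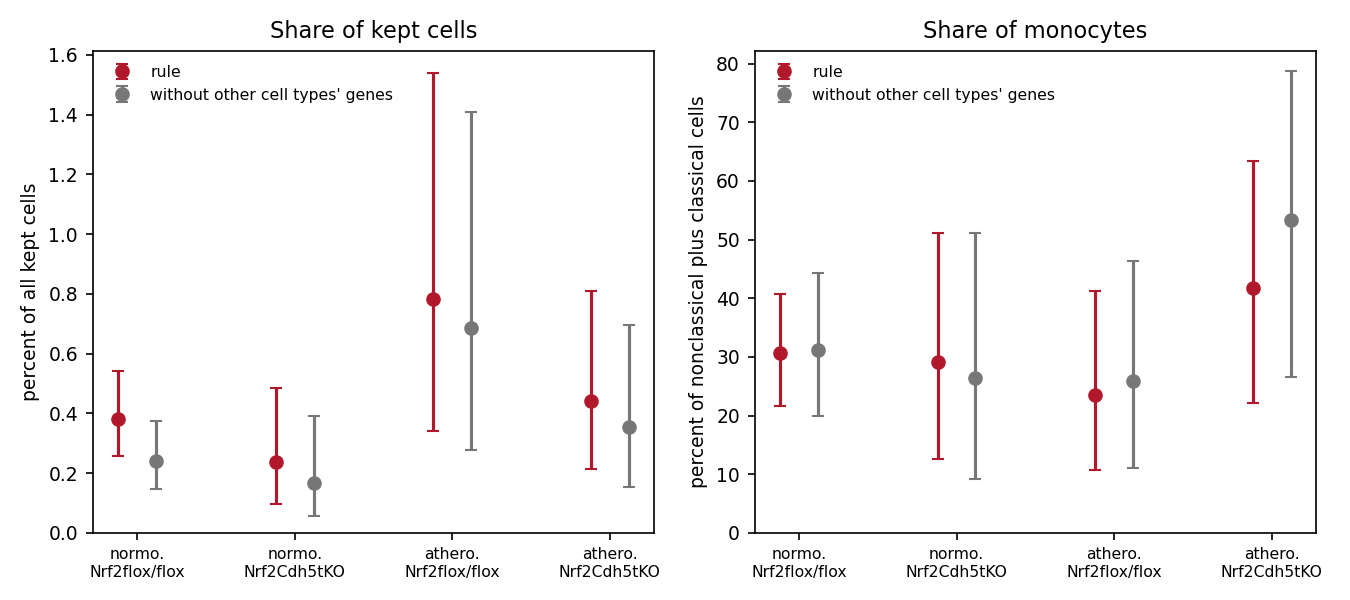
Nonclassical monocytes as a percent of kept cells and of nonclassical plus classical monocytes in each library, by the rule and without the cells that carry other cell types' genes. Bars are 95% exact intervals of counting error, and they overlap between libraries in both panels.

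The level of Nfe2l2, the targeted gene, was compared between the genotype labels. It had 164, 51, 42 and 92 UMIs in the members of the 4 libraries, or 521, 423, 703 and 1318 CPM, and 651, 819, 665 and 1316 CPM in the 39 cells. The ratio of the library labelled Nrf2Cdh5tKO to Nrf2flox/flox was -0.30 on the log2 scale (95% counting interval -0.79 to 0.16) without atherosclerosis and 0.90 (0.36 to 1.47) with it. The interval of the normocholesterolemic pair held 0 and allowed a fall, while in the atherosclerotic pair the transcript was higher in the members labelled Nrf2Cdh5tKO, against the label. Where the counted transcript ends lie relative to the deleted exon was not tested, so the transcript count may not show the deletion. The Nrf2Cdh5tKO libraries are named by their label throughout for this reason. Targets of Nrf2 were counted as lower for 7 of 16 genes in the normocholesterolemic and 0 of 9 in the atherosclerotic pair, as described below. Of all genes 12.4% and 3.86% were lower, and other lists fell as well in the normocholesterolemic pair.

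Condition values rest on 1 library each and carry no test. A gene was counted as different when the pair of libraries had at least 20 UMIs, the ratio was 2-fold or more and its counting interval left out 0 on the log2 scale. Between the atherosclerotic and the normocholesterolemic Nrf2flox/flox library 240 of 2649 genes were higher (9.06%) and 211 lower (7.97%). In the 39 cells 116 of the 240 and 68 of the 211 were counted again, by a looser count than these criteria. Under the full criteria 109 genes were higher and 95 lower in the 39 cells. The same sign was kept in the 39 cells by 220 of the 240 and 176 of the 211. Why the other genes were not counted again was not tested. Of the 12 genes with the clearest ratios, Aebp1, Dcn, Eln, Pmepa1 and Sfrp2 were higher mainly through the member with fibroblast genes, and C1qb, Cd207, Retnla, S100a8 and S100a9 were lower with the macrophage-, dendritic- and neutrophil-gene members of the normocholesterolemic library. Of the 12, the ribonuclease gene Rnaset2b (log2 ratio 3.02, 2.40 in the 39 cells) and H2-Eb1 were the 2 that also differed in the 39 cells.

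MHC class II genes had lower summed levels in the atherosclerotic than in the normocholesterolemic Nrf2flox/flox library in both sets of cells. Of 8 tested, 6 were lower and 0 higher in atherosclerosis, and all 6 were lower in the 39 cells too (H2-Aa, H2-Ab1, H2-Eb1, Cd74, H2-DMa and H2-DMb1). H2-Aa had 1504 UMIs (4782 CPM) in the normocholesterolemic and 15 UMIs (251 CPM) in the atherosclerotic Nrf2flox/flox members, a log2 ratio of -4.24 (-5.09 to -3.52), and -3.08 (-3.95 to -2.36) in the 39 cells. Its ratio was -0.11 in classical monocytes and -0.04 in macrophages of the same libraries. The H2-Aa UMIs of all members lay in 16 of 30 and 2 of 8 cells. At least 1% of UMIs from the 4 MHC class II genes summed above was reached by 11 of the 30 and 1 of the 8. In the 39 cells it was reached by 5 of 19 and 1 of 7, so a few cells weigh heavily in these ratios. The library labelled atherosclerotic Nrf2Cdh5tKO exceeded the atherosclerotic Nrf2flox/flox library in 4 of 6 tested genes, and in none of them in the 39 cells.

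Cytokine and chemokine transcripts were lower in the atherosclerotic than in the normocholesterolemic Nrf2flox/flox members. Of 15 cytokine genes tested 10 were lower and 0 higher (median -1.97, beside 0.01 for all genes), and Cxcl2, Ccl3, Ccl4, Tnf and Il1b had intervals below 0 in the 39 cells as well. Cxcl2, a neutrophil attractant, had 3094 and 787 CPM, a log2 ratio of -1.97 (-2.43 to -1.55), and -2.25 in the 39 cells. Tnf had 343 and 83.7 CPM (-2.0, and -1.88 in the 39 cells) and Ccl3 464 and 50.2 (-3.14 and -3.74). The heat shock gene Hspa8 had 2277 and 720.1 CPM (-1.66 in both sets), the ferritin chain Fth1 had -1.11 and -1.14, and the cystine importer Slc7a11 had -3.19 and -2.75. In macrophages of the same libraries the ratios were -0.56 for Cxcl2, -0.28 for Tnf, -1.39 for Ccl3 and -0.84 for Fth1.

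Lipid and nonclassical genes were higher in the same comparison. Of 14 lipid genes tested 8 were higher and 2 lower (median 1.10), and Fabp4, Cd36, Pparg, Apoe, Abcg1 and Lipa had intervals above 0 in the 39 cells. Abcg1 was at 60.4 CPM without and 335 with atherosclerosis, a log2 ratio of 2.42 (1.49 to 3.46), with 2.09 in the 39 cells, 1.67 in classical monocytes and 2.40 in macrophages. Apoe was at 3701 CPM without and 7536 with atherosclerosis, a log2 ratio of 1.03 (0.87 to 1.18) with 1.07 in the 39 cells, against -0.10 in classical monocytes and -0.09 in macrophages. Pparg had a ratio of 2.65 (2.07 in the 39 cells) and Fabp4 2.12 (1.49). Of 20 other nonclassical genes 12 were higher and 0 lower (median 1.19), such as Ear2 (2.28), Tcf7l2 (2.18), Dusp5 (2.11), Fcgr4 (1.38) and Cx3cr1 (1.27). In the 39 cells 9 of the 12 kept an interval above 0, among them these 5. Spn (1.26, and 0.49 with an interval of -0.25 to 1.20 in the 39 cells) did not. Ccr2, low in all members, had 105 and 251 CPM (1.24, and 2.27 in the 39 cells).

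**Figure D5:**
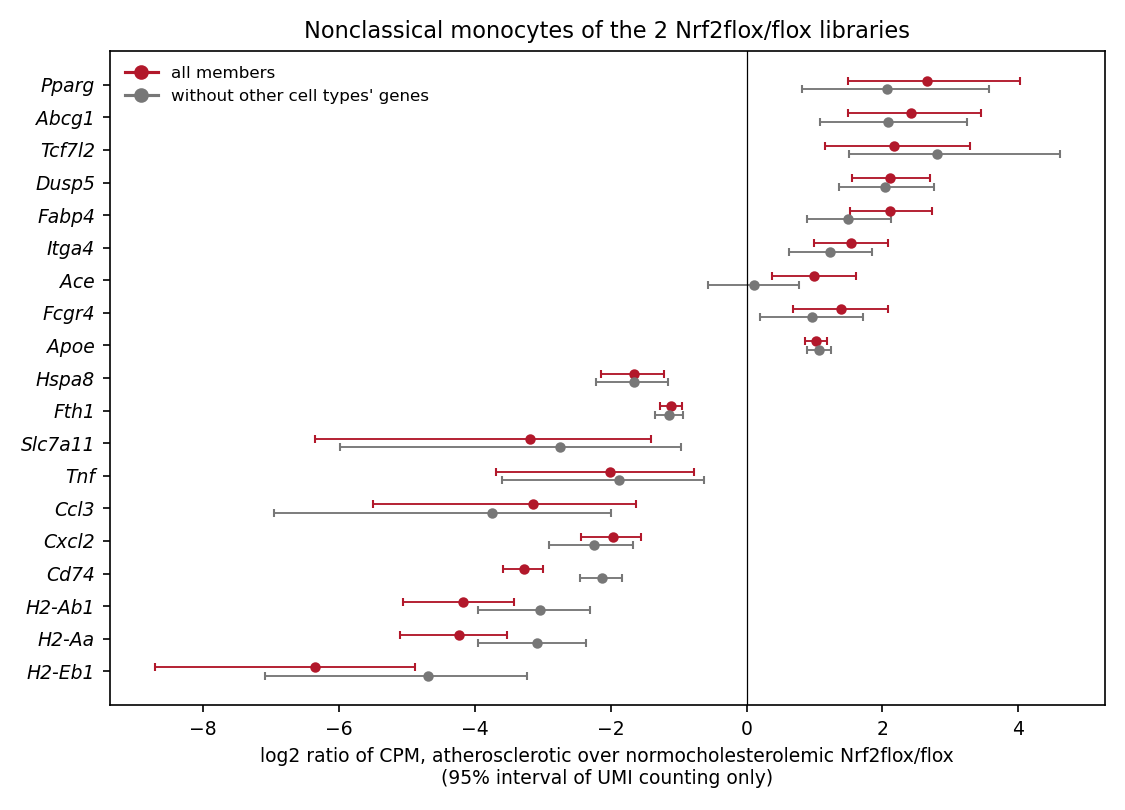
Log2 ratio of the atherosclerotic to the normocholesterolemic Nrf2flox/flox library for 19 genes, in all members and in the 39 cells without other cell types' genes, with 95% counting intervals. MHC class II and chemokine genes lie below 0 and Apoe, Abcg1, Pparg, Fabp4 and Tcf7l2 above 0 in both sets.

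The atherosclerosis comparison within the libraries labelled Nrf2Cdh5tKO was added after seeing the data. It ran the same way for some groups and the other way for others, among them chemokines and stress genes. Of 1442 genes tested 257 were higher (17.8%) and 127 lower (8.81%) in atherosclerosis. Of 8 cytokine genes 5 were higher (Ccl3, Ccl4, Ccl6, Cxcl2 and Tnf) and 1 lower. Tnf had 8.29 CPM, from 1 UMI, without and 344 CPM with atherosclerosis, a log2 ratio of 4.69 (2.76 to 10.7), and 3.02 (0.78 to 8.88) in the 39 cells. Ccl4 had 323 and 673 CPM (1.05, and 3.28 in the 39 cells). Cxcl2 had 58.0 and 1532 CPM (4.6), with 0.64 (-0.71 to 2.21) in the 39 cells. Of 8 MHC class II genes 6 were lower and 1 higher, with H2-Aa at 8443 and 1790 CPM (-2.23, and -2.91 in the 39 cells). Of 10 lipid genes 8 were higher and 0 lower, 6 of them in the 39 cells as well, such as Fabp4 (6.03 and 4.29), Apoe (2.71 and 1.5) and Abcg1 (2.30 and 1.79). Of 17 other nonclassical genes 12 were higher and 0 lower, and Cd36, Cebpb, Il17ra and Klf2 had intervals above 0 in the 39 cells. Of 17 immediate-early and heat shock genes 8 were higher and 2 lower, with Hspa1a (2.78) and Ier3 (2.19) higher and Fos (-1.08) lower, each also in the 39 cells, whereas of 19 in the Nrf2flox/flox pair 2 were higher and 6 lower, with Hspa1a and Ier3 (-1.19) lower and Fos (1.01) higher. Of 10 Nrf2 targets 4 were higher (Fth1 with 1.51, Ftl1, Gsr and Nfe2l2) and 0 lower, beside 1 higher and 3 lower of 17 in the Nrf2flox/flox pair. Of 6 macrophage genes 6 were higher, Apoe also in the 39 cells, beside 1 higher and 5 lower of 10. Of 17 lysosomal genes 10 were higher and 1 lower, beside 1 and 3 of 20. The members of these libraries numbered 7 and 10, and 2 members with dendritic cell genes gave most UMIs of the first. This comparison shares its libraries with the genotype comparisons that follow.

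Between the normocholesterolemic libraries, the one labelled Nrf2Cdh5tKO (7 members) had 192 of 2964 genes higher (6.48%) and 367 lower (12.4%) than Nrf2flox/flox (30 members). This comparison shares its control library with the atherosclerosis comparison of the Nrf2flox/flox libraries. In the 39 cells 49 and 46 of these were counted again by the looser count named above. Ccnb2, Ube2c, H2afx, Ahr, Golga3 and Ppt1 were higher with UMIs in 1 to 5 of the 7 members of that library, and none of the 6 had an interval above 0 in the 39 cells. C1qb, Cd207, Retnla, S100a8 and S100a9 were lower and followed the members with other cell types' genes. Cxcl2 was at 58.0 against 3094 CPM (log2 ratio -5.68, and -3.76 in the 39 cells). Apoe was at 563 against 3701 CPM (-2.71 and -1.5), Fabp4 at 16.6 against 172 (-3.20 and -2.56) and Cd36 at 99.4 against 305 (-1.60 and -2.53). The factor Klf4 was higher, at 671 against 264 CPM (1.34 and 2.00), as was Dusp5 (1.10 and 1.91). Of 16 Nrf2 targets 7 were lower and 0 higher (median -0.90, beside -0.09 for all genes), and Slc7a11 (-4.96 and -3.34), Txnrd1 (thioredoxin reductase, -1.86 and -2.83), Ftl1 (-1.67 and -1.14) and Fth1 stayed lower in the 39 cells. Other lists fell with them, 9 of 9 macrophage genes (1 of them also lower in the 39 cells), 12 of 15 cytokine genes (5, list median -3.17), 13 of 20 lysosomal genes (1, -1.25) and 11 of 16 Fc and phagocytic receptors (2, -1.34), and their part in the values of the Nrf2 targets was not tested. Ftl1 in the macrophages of the same libraries had -0.75. With 5 of the 39 cells from the library labelled Nrf2Cdh5tKO, a few cells set each of these values.

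Between the atherosclerotic libraries, the one labelled Nrf2Cdh5tKO had 55 of 1089 genes higher (5.05%) and 42 lower (3.86%). In the 39 cells 27 and 20 of these were counted again by the same looser count. None of 9 tested Nrf2 targets was counted in either direction. C1qb, H2-Ab1 and H2-Eb1 were higher with the members rich in C1q genes, and Aebp1, Dcn, Mgp and Sfrp2 lower with the fibroblast-gene member of the other library. Basp1 had 20 UMIs in 4 cells and Rgs1 53 in 5 against 0 and 1. Fabp5 had 36 UMIs in 2 cells against 0. The interferon-stimulated Ifi27l2a was at 215 against 1507 CPM (log2 ratio -2.77, and -2.36 in the 39 cells) and Ly6i at 14.3 against 335 (-3.96 and -3.87). Apoe was at 3709 against 7536 CPM (-1.02 and -1.06) and Fos at 487 against 1356 (-1.46 and -1.94). Hspa1b (4.06 and 4.10) and Clec4e (1.40 and 1.66) were higher. None of 18 other nonclassical genes was counted in either direction.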

How the data were processed

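Per the labels and the study's methods, DAPI-negative cells of aortic arches were sorted and sequenced with the 10x Genomics 3′ v3.1 kit in 4 libraries. The authors mapped the reads to mm10 with Cell Ranger 6.1.2 and deposited filtered matrices of UMI counts per gene (31053 genes) and barcode, with 8512, 3460, 1160 and 2467 barcodes and 98754487, 43717402, 12276546 and 24184211 UMIs. From these counts, barcodes within the gene and mitochondrial limits given in the report were retained (7890, 2972, 1020 and 2266 cells, in the library order of the report). No doublets were removed; Scrublet, run through scanpy 1.11.5, marked 190, 64, 10 and 42 of the kept cells.

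Nonclassical monocytes were gated by the UMI rule given in the report, classical monocytes and macrophages as stated there. The macrophage gate left out cells of either monocyte gate and cells with Cd3e, Cd79a or Pdgfra, and 22 nonclassical-like cells stayed in the classical gate. UMIs were summed per library and population and tested with edgeR 4.0.16 in R 4.3.3 (TMM, robust quasi-likelihood fit, library and population as terms, 3 residual degrees of freedom), over genes with at least 20 UMIs, with Benjamini-Hochberg adjustment over all genes and a threshold of 0.05. On data simulated from these sums, the test recovered 16% of genes changed by a log2 fold of 1 and 76% of those changed by 2 against classical monocytes (7682 genes), and 7% and 79% against macrophages (11408 genes). False calls made up 6.12% and 2.27% of the calls. The simulation used a fixed spread that was not estimated from the data and no library effect. Its changed genes were among the better-counted ones, so recovery of sparse genes was not tested. Shares have exact Clopper-Pearson 95% intervals. Ratios between libraries have exact binomial 95% intervals with a prior of 0.5 UMIs shared out by depth. These intervals cover counting error only. All printed p-values come from edgeR unless stated.

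Named genes were, for each test, the 12 with the highest fold in each direction among those called with the same sign in every library, without unnamed gene models and ribosomal and mitochondrial genes, and for each pair of libraries the 6 in each direction with the clearest interval, plus members of gene lists. The members, the lists and the tests were chosen with earlier results of these data known, and the promoter words and the set of 39 cells after the values had been seen. Promoters were read from a RefSeq table for GRCm38.p6, matched by symbol. Alternatives covered DESeq2 1.42.0, RLE scaling, the minimum count, the library block, each library left out, and other gates. A few genes, and the name of the viral vector given to the atherosclerotic mice, are not reported here, although the genes stay in the counts of tested and called genes.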

Additional observations from a re-analysis of the deposited data

Results flagged for a closer look

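Outside the nonclassical arm of both comparisons, 24 cells had at least 2 UMIs of Treml4 plus Cd300e and met every other condition except the limit on Chil3 plus Ly6c2 (18, 1, 1 and 4 by library), and 22 of them lay in the classical gate. Their median depth was 10203 UMIs, none was marked as a doublet, and 4 had more than 20 UMIs of S100a8 plus S100a9. Cd300e had a UMI in 5 of the 24, all in the first library, and in 29 of the 55 members. The 24 cells had 292 CPM of Ace, beside 344 in the nonclassical cells and 53.7 in the other 103 classical cells, 429 of Itgal (402 and 105), and 176 of Spn (259 and 53.7). For classical genes they stood at 144 CPM of Ccr2 (104 and 574), 22.4 of F13a1 (5.31 and 447), and 449 of Ly6c2 (17.7 and 1240). Plac8 was at 2865 CPM (1215 and 2501). Fcgr4 stood at 73.7 CPM (244 and 23.9), Lyz2 at 15670 (8204 and 21211), Cd74 at 2452 (14048 and 3005) and H2-Aa at 522 (4716 and 1026). They thus lay closer to the nonclassical cells in Ace, Itgal, Spn, Ccr2 and F13a1 and closer to the other classical cells in Plac8, Fcgr4, Lyz2, Cd74 and H2-Aa. Plac8 and Lyz2 are genes of the classical gate, which 22 of the 24 cells passed, so the gate itself made that closeness likely. Without the 4 cells rich in S100a8 and S100a9 the rest of the 24 had 223 CPM of Ccr2, 4296 of Plac8, 3840 of Cd74, 796 of H2-Aa and 396 of Ace.

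The ratio of the library labelled Nrf2Cdh5tKO to Nrf2flox/flox was 2-fold or more with an interval without 0 in both the normocholesterolemic and the atherosclerotic pair, with opposite signs that were the same in the 39 cells, for 5 genes of the lists. The log2 ratios were -1.23 and 1.19 for the stress factor Atf3, -1.17 and 1.96 for the chemokine Ccl4, -2.61 and 1.40 for the lectin Clec4e, -4.74 and 1.07 for G0s2, and -5.03 and 1.94 for Tnf. With 1 library per arm the difference between the pairs was not tested. In the 39 cells without other cell types' genes, the normocholesterolemic ratio of Atf3 was -0.22 (95% counting interval -1.22 to 0.66) and that of G0s2 -2.17 (-7.76 to 0.25), and the atherosclerotic ratio of Tnf was 1.38 (-0.07 to 3.28). These 3 intervals held 0, and those of Ccl4 and Clec4e did not in either pair.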

How the results depend on the processing

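Against classical monocytes the count of higher genes (83) became 52 with DESeq2, 32 without the library block, 149 with at least 3 UMIs of Treml4 plus Cd300e, and 51 to 86 when 1 library was left out (54 without the normocholesterolemic Nrf2flox/flox library, 51 without the library labelled atherosclerotic Nrf2Cdh5tKO). The count of lower genes (142) became 72, 79 and 215 under the first 3 of these, 252 without Scrublet doublets, 93 under the strict classical gate and 75 to 127 without 1 library (75 without the library labelled atherosclerotic Nrf2Cdh5tKO). Against macrophages the higher genes (365) became 192 to 331 without 1 library (192 without the normocholesterolemic Nrf2flox/flox library) and the lower genes (690) became 397 with DESeq2. Of the called genes of the lists and of the highest folds (74 and 172), those tested kept their direction under every alternative listed in the methods, except Pglyrp1, which had 2.08 (adjusted p = 0.37) under the strict classical gate, and Ccl5 with at least 3 UMIs of Treml4 plus Cd300e.

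The share of members in the normocholesterolemic Nrf2flox/flox library (0.380%) became 0.837% with at least 1 UMI of Treml4 plus Cd300e, 0.238% with cells thinned to 3000 UMIs and 0.241% in the 39 cells. With at least 1 UMI the other shares became 0.538% (from 0.236%), 1.47% (from 0.784%) and 0.706% (from 0.441%). Thinned cells gave 0.113%, 0.457% and 0.450% in the same 3 libraries. Counts between libraries moved with the members included. Between the Nrf2flox/flox libraries the higher genes became 109 in the 39 cells. The lower genes became 137 without the members rich in C1q genes and 95 in the 39 cells. Between the normocholesterolemic genotype labels the higher genes became 295 with a minimum of 10 UMIs and 90 in the 39 cells, and the lower genes 61 in the 39 cells. Between the atherosclerotic ones the counts became 108 and 80 with a minimum of 10 UMIs. The set of 39 cells was chosen after seeing the data. For counts not given a cause here, the cause was not tested.

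The limits are 1 pooled library per condition, 7 to 30 members per library and a low chance of calling a log2 fold of 1 in the simulation. The library block paired the populations in both tests, and conditions were not tested.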
